A study of Sus scrofa with 24 samples.

Results

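Cholesterol is built from acetyl-CoA by a long chain of enzymes, and 7 genes of that pathway and its control were asked for by symbol: HMGCS1, IDI1, FDPS, FDFT1, SQLE, CYP51A1 and INSIG1. The rule that picks them uses symbols and no measured value, but the members were chosen with earlier results of these data known. Of the 7, 5 carried their symbol in the deposited table, among 12017 genes in all, and they were covered by 9 transcripts. SQLE and IDI1 were not matched and are not analysed here. The 5 listed genes are 4 enzymes of synthesis and 1 regulator, INSIG1, so the uptake of cholesterol is described from a list of uptake genes given further on.

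The study sequenced polyadenylated RNA from longissimus dorsi, a back muscle, of 24 crossbred pigs taken from the extremes of intramuscular fat (IMF) content, with 12 animals of high IMF and 12 of low IMF. All were first-generation Duroc x Luchuan offspring (8 boars, 112 sows), drawn from 265 such animals that ate the same diets on 1 farm and were slaughtered at 210 days of age, give or take 6 days. Muscle from the junction of the chest and loin was sampled 25 minutes after death, and each library came from 1 animal. No treatment or engineered allele separated the groups. IMF class is therefore a class of animals picked for a trait, and the labels here give neither sex nor sire. The limma p-values set a class difference against the spread between these animals, and the permutation p-values set a correlation against reshuffled animals.

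In the mevalonate pathway, acetyl-CoA units are joined into HMG-CoA, carried through mevalonate, turned into isoprenoid units, and condensed into squalene, which is closed into a ring and trimmed to cholesterol. When sterols in the endoplasmic reticulum run low, INSIG proteins let go of the factor SREBP-2 and its escort SCAP. SREBP-2 then switches on most genes of synthesis. When sterols are plentiful, INSIG proteins hold SREBP in the membrane, and synthesis slows. Fat cells hold a large store of free cholesterol.

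Values are FPKM, fragments per kilobase of transcript scaled to sequencing depth, so levels are per length and can be set side by side between genes. The libraries summed to between 351119 and 415572 FPKM, and the steps between their lowest values gave depths of 32.9 to 40.8 M reads. The skeletal muscle fibre markers were all listed, 11 of 11, and summed to between 21022 and 58067 FPKM, although myoglobin (MB) averaged only 0.408 FPKM in high IMF and 0.628 FPKM in low IMF. The 12 adipocyte markers summed to 166 to 333 FPKM in high IMF and 107 to 258 FPKM in low IMF. In bulk muscle, fewer cells of a type and less RNA per cell cannot be told apart. The 10 most abundant genes took 18.5% to 33.0% of all FPKM, and low IMF animal 10 and high IMF animal 7 had the smallest shares. Animal identifiers began with 1 of 2 strings of 4 digits, which split the animals into a first and a second identifier set, each with 6 animals of either class. In addition, 6 animals formed 3 pairs that shared their first 9 identifier digits, each pair within 1 class. These were high IMF animals 4 and 8, low IMF animals 2 and 8, and low IMF animals 6 and 7. The labels do not say what the digits mean. The main fits and correlations counted every animal as independent, and alternatives with 1 animal per shared 9 digits are given at the end.

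FDFT1, squalene synthase, stood far above the other 4 genes. Its level averaged 43.4 ± 13.9 FPKM (SD, n = 24), which placed it above 92.9% of the 11757 genes tested, and it was the highest of the 5 in 24 of 24 animals. INSIG1 followed at 3.63 ± 1.79 FPKM, then HMGCS1 at 2.68 FPKM (coefficient of variation 37.5%), CYP51A1 at 1.73 ± 0.579 FPKM and FDPS at 1.33 ± 0.831 FPKM. The order among these 4 was loose. INSIG1 lay above HMGCS1 in 17 of 24 animals, HMGCS1 above CYP51A1 in 21, and CYP51A1 above FDPS in 14, and the means of these neighbours lay within 1 SD of each other for INSIG1 with HMGCS1 and for CYP51A1 with FDPS. Within an animal FDFT1 was a median of 14.8 times INSIG1, the next in order. The last place of FDPS rests on 1 listed transcript that crosses into a neighbouring gene, as described below. Summed over its locus FDPS averaged 3.23 FPKM, above the means of HMGCS1 and CYP51A1, though that sum also holds reads of the neighbour. Its place in the order can therefore not be read from these values.

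**Figure D1:**
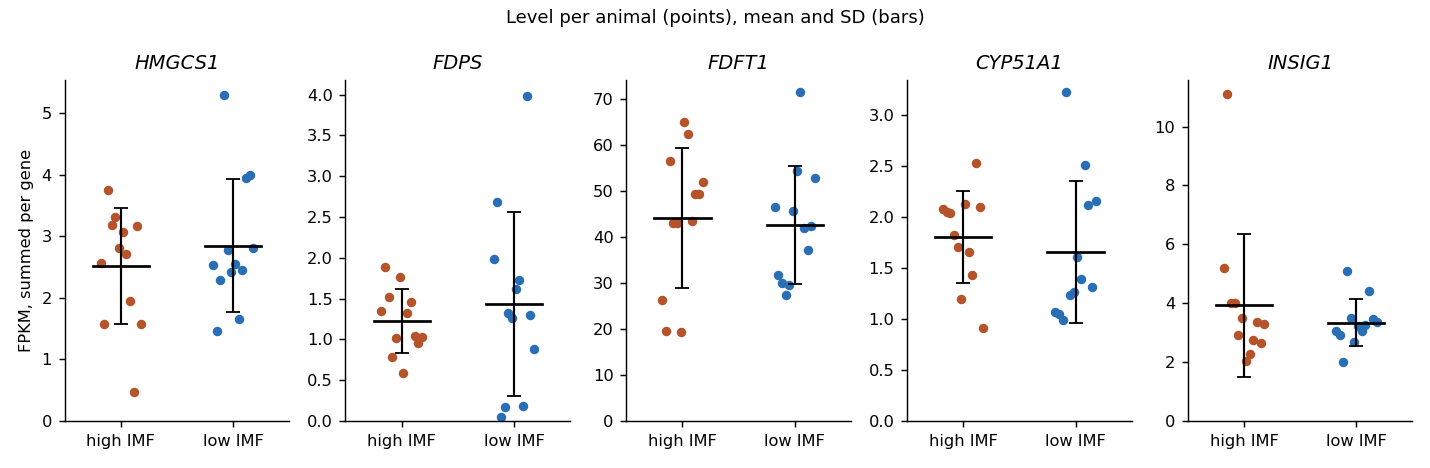
FPKM summed per gene (linear axis from 0, 1 scale per gene) in each of the 12 high IMF and 12 low IMF animals, with horizontal bars for the mean and vertical bars for the SD. The classes overlap for all 5 genes, 1 high IMF animal stands at 11.1 FPKM of INSIG1, and 3 low IMF animals lie near 0 FPKM of FDPS.

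HMGCS1 encodes the cytosolic HMG-CoA synthase, which adds acetyl-CoA to acetoacetyl-CoA near the start of the pathway. It lies on chromosome 16 from 27936229 to 27957301 on the minus strand (Sscrofa11.1). Its level ran from 0.468 through a median of 2.75 to 3.76 FPKM in high IMF, and from 1.45 through 2.54 to 5.30 FPKM in low IMF. The single lowest value was that of high IMF animal 10 and the highest that of low IMF animal 4, and the classes overlapped over most of their range. The difference, high minus low IMF on the log2(FPKM + 1) scale, was -0.15 (SE 0.170, 95% interval -0.50 to 0.20, limma adjusted p = 0.850).

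FDPS encodes farnesyl diphosphate synthase, which makes the branch-point isoprenoid for sterols, coenzyme Q, dolichol and protein prenylation. Its listed value ran from 0.584 through 1.19 to 1.88 FPKM in high IMF and from 0.0420 through 1.31 to 3.99 FPKM in low IMF. Low IMF animals 3, 4 and 9 were at 0.0420, 0.170 and 0.183 FPKM, below every high IMF animal, while low IMF animal 10 was above every other animal. The low class thus spread on both sides of the high class. The limma difference was -0.0034 (SE 0.201, 95% interval -0.42 to 0.41, adjusted p = 0.999).

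FDFT1 joins farnesyl diphosphates into squalene, the first step given over to sterols alone. Its level ran from 19.3 through 46.4 to 65.0 FPKM in high IMF and from 27.3 through 42.2 to 71.7 FPKM in low IMF. High IMF animals 1, 2 and 6, at 26.3, 19.7 and 19.3 FPKM, lay below every low IMF animal, and the other 9 exceeded the low IMF median. Means were 44.2 ± 15.3 and 42.6 ± 12.9 FPKM (SD, n = 12 each), and the limma difference was 0.0079 (SE 0.197, 95% interval -0.40 to 0.41, adjusted p = 0.994). Its sign turned to -0.10 with TMM scaling of the libraries and to -0.11 with upper-quartile scaling.

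CYP51A1, lanosterol 14-alpha-demethylase, removes a methyl group after the ring has closed. It is a single listed transcript of 10 exons on chromosome 9 from 72054942 to 72079598, minus strand. Its level ran from 0.909 through 1.93 to 2.52 FPKM in high IMF and from 0.988 through 1.35 to 3.23 FPKM in low IMF. The low IMF median was exceeded in 10 of 12 animals of high IMF, but the highest value of all was that of low IMF animal 4. The limma difference of 0.099 (SE 0.124, 95% interval -0.16 to 0.35) had an adjusted p of 0.863.

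INSIG1, the sterol-sensing retention protein described above, is a single listed transcript of 6 exons on chromosome 18 from 2885494 to 2898883, minus strand. Its level ran from 2.04 through 3.33 to 11.1 FPKM in high IMF and from 2.01 through 3.26 to 5.09 FPKM in low IMF. High IMF animal 2 alone reached 11.1 FPKM, and the next high IMF animal was at 5.18 FPKM, next to the low IMF maximum of 5.09 FPKM in animal 4. The limma difference was 0.099 (SE 0.164, 95% interval -0.24 to 0.44, adjusted p = 0.911), and it was -0.029 without high IMF animal 2.

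None of the 5 genes passed an adjusted p of 0.05 in limma (0 of 5 in either direction), and 0 of 5 had an unadjusted p under 0.05. Over all 11757 genes tested, 0.0425% were called higher and 0.00851% lower in high IMF (0.051% in all), and 7.68% passed the unadjusted threshold, so a count of 0 among 5 genes does not stand apart from that background. The median difference of the 5 genes was 0.0079, beside 0.077 over all genes, of which 73.4% had a positive difference. With TMM scaling the median over all genes was -0.00038 and that of the 5 genes -0.039. The intervals reached as far as -0.50 (HMGCS1) and 0.44 (INSIG1) on the log2(FPKM + 1) scale, and a p that missed the threshold does not show equal levels.

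Transcripts gave the same count. Of the 9 listed transcripts of these genes, 0 passed in limma and 0 had an unadjusted p under 0.05, where 0.0187% of 21405 transcripts passed and 6.34% had an unadjusted p under 0.05. In the authors' deposited table, whose fold is low over high IMF, the smallest p among the 9 was 0.2694, for the HMGCS1 transcript MSTRG.5867.1 with a fold of 1.202, and the largest was 0.9995. That table gave an unadjusted p under 0.05 to 6.39% of its 22154 transcripts.

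**Figure D2:**
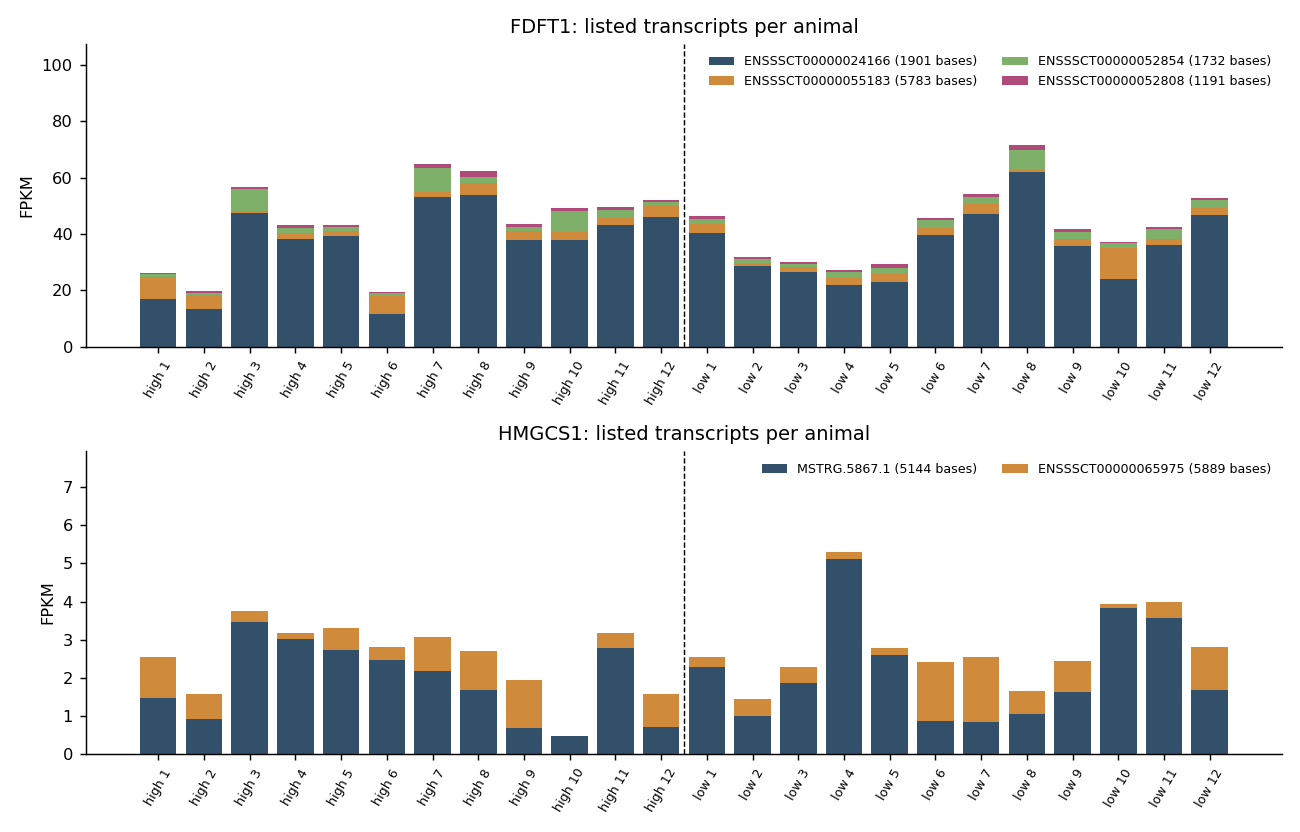
Stacked FPKM of the listed transcripts of FDFT1 (upper) and HMGCS1 (lower) in each animal, with a dashed line between the high and low IMF animals. A single FDFT1 transcript makes up 60.1% to 90.8% of the gene's value, while the HMGCS1 value passes between 2 transcripts from animal to animal.

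The FDFT1 value rested mostly on 1 of its 4 transcripts. ENSSSCT00000024166, of 1901 bases on chromosome 14 from 14983054 to 15010696, made up a median of 86.4% of the gene's FPKM, with 60.1% in high IMF animal 6 and 90.8% in high IMF animal 5. Its share averaged 80.2% ± 10.6 in high IMF and 83.8% ± 6.94 in low IMF (SD, n = 12 each), a gap smaller than either SD. The transcript with the longest exons, ENSSSCT00000055183 of 5783 bases, took between 1.12% and 32.2%, and its share was largest in high IMF animal 6, 1 of the 3 animals with the lowest FDFT1 level. Across animals it was lower where the main transcript was higher, with Pearson r = -0.57 (permutation adjusted p = 0.0167 over 17 transcript pairs), Spearman rho = -0.37 (permutation adjusted p = 0.161), r = -0.50 without the 2 farthest animals, and r = -0.43 and -0.62 within the identifier sets. Its span covers that of the main transcript, and the part of the division of shared reads in this relation was not tested. ENSSSCT00000052854 spans 14976259 to 15104179 and so runs past the neighbouring RefSeq gene CTSB, the lysosomal protease cathepsin B, at 15014139 to 15035081. ENSSSCT00000055183 ends at 15014648 and so also reaches into the CTSB span. ENSSSCT00000052854 held between 2.63% and 15.1% of the FDFT1 value, and ENSSSCT00000052808 held between 1.13% and 5.35%.

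HMGCS1 was split between an assembled transcript, MSTRG.5867.1 (11 exons, 5144 bases), and the reference transcript ENSSSCT00000065975 (10 exons, 5889 bases). The assembled one made up between 33.2% of the value (low IMF animal 7) and 100% (high IMF animal 10), where the reference transcript was listed at 0. Their levels ran against each other, with r = -0.53 (permutation adjusted p = 0.0200 over the same 17 pairs), rho = -0.59 (permutation adjusted p = 0.0182), and r = -0.44 without the 2 farthest animals. Within the identifier sets r was -0.25 and -0.77. The mean share of the assembled transcript was 72.8% ± 21.3 in high IMF and 73.0% ± 22.4 in low IMF (SD, n = 12 each). The 2 spans overlap, and the part that the division of shared reads has in these relations was not tested.

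**Figure D3:**
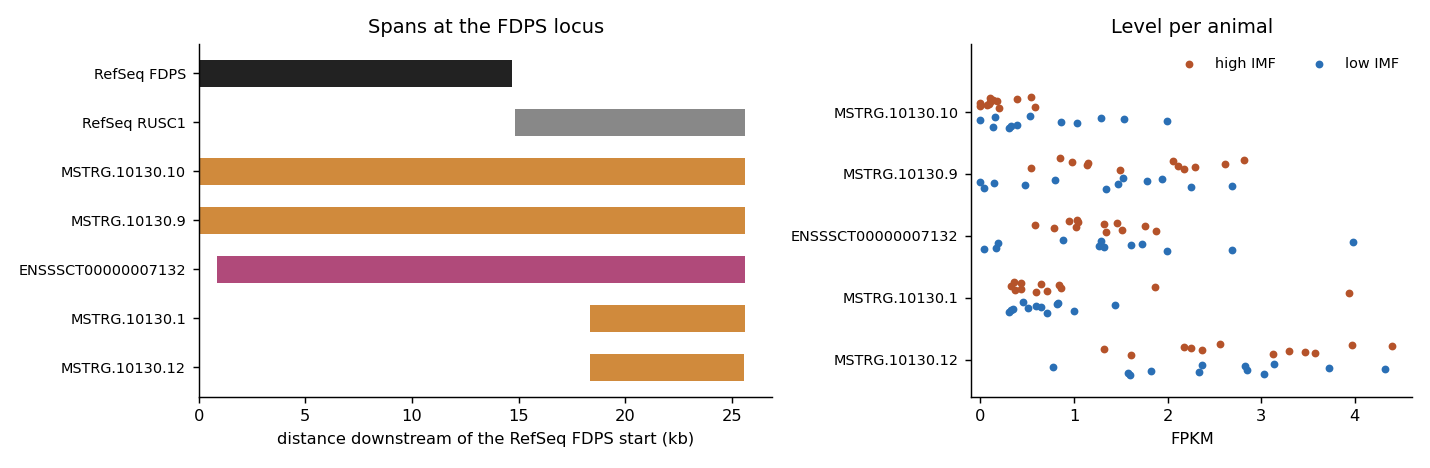
Left, spans of RefSeq FDPS, RefSeq RUSC1 and the 5 listed transcripts at the FDPS locus, as distance in kilobases downstream of the RefSeq FDPS start. Right, FPKM of those 5 transcripts in each high IMF and low IMF animal, where the transcript listed as FDPS reaches across both genes and lies near 0 in 3 low IMF animals.

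The FDPS value needs a closer reading, because the only transcript that carries the symbol crosses into the next gene. ENSSSCT00000007132 has 19 exons and 6310 bases on chromosome 4 from 94489208 to 94513941, minus strand. It overlaps 13802 bases of RefSeq FDPS (94500140 to 94514820) and 10786 bases of RefSeq RUSC1 (94489202 to 94499993), a gene for an adaptor protein, so reads of both genes share the value. Assembled transcripts at the locus without a symbol cover the same ground, and MSTRG.10130.9 and MSTRG.10130.10 also span both genes. Where the listed FDPS value was near 0, these were not: low IMF animal 4 had 2.69 FPKM of MSTRG.10130.9 and low IMF animal 9 had 1.79 FPKM, with 1.53 FPKM of MSTRG.10130.10. Over all animals MSTRG.10130.9 and the listed transcript ran against each other, with r = -0.60 (permutation adjusted p = 0.0164), rho = -0.70 (permutation adjusted p = 0.00391), r = -0.54 without the 2 farthest, and r = -0.62 within either identifier set. Here too the spans overlap, and the part of the division of shared reads was not tested.

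Summing the 3 transcripts over RefSeq FDPS removed most of that scatter. The sum ran from 2.05 through 3.09 to 4.64 FPKM in high IMF and from 1.72 through 3.32 to 6.07 FPKM in low IMF, and low IMF animals 3, 4 and 9, at 2.63, 3.25 and 3.50 FPKM, then lay inside the range of the others. The coefficient of variation was 26.8% for the sum and 62.6% for the listed transcript. The limma difference of the sum was -0.066 (SE 0.118, adjusted p = 0.922). This sum was chosen after the data were seen, and it still holds reads of RUSC1.

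**Figure D4:**
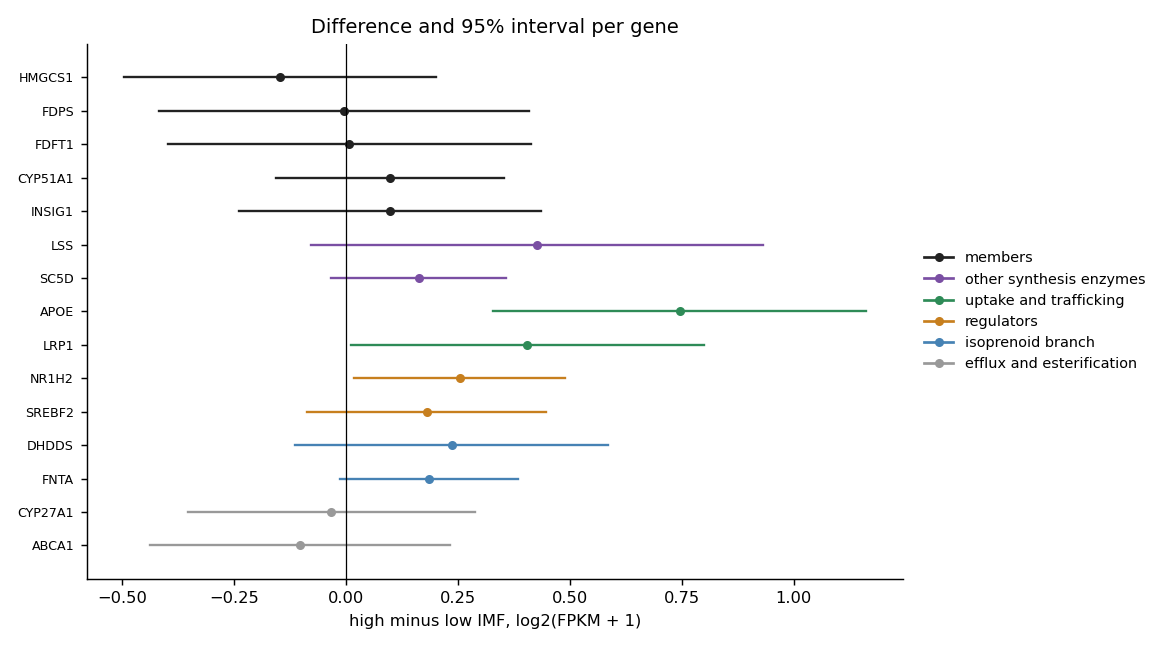
Difference, high minus low IMF on the log2(FPKM + 1) scale, with its 95% interval from limma, for the 5 genes and for the 10 genes of 5 pathway lists named in the text, 1 line per gene. Intervals of the 5 genes all cross 0, and the highest point among the pathway genes is APOE at 0.74.

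The rest of the pathway was read from 5 fixed lists, and 0 of their 47 tested genes passed the adjusted threshold in limma. Among the other enzymes of synthesis 16 of 17 were tested, and 14 differences were positive with a median of 0.097, falling to 10 positive with TMM scaling. None of them had an unadjusted p under 0.05, and the 2 smallest p belonged to LSS, which closes the sterol ring, at 0.43 (adjusted p = 0.695), and SC5D, a late sterol desaturase, at 0.16 (adjusted p = 0.704). LSS averaged 1.45 FPKM in high IMF and 0.835 FPKM in low IMF. It was listed at 0 in high IMF animals 10 and 12 and in low IMF animals 3, 5 and 12. SC5D was above its low IMF median in all 12 animals of high IMF, although the highest SC5D value was that of low IMF animal 4. The share of all genes that do so was not counted. With TMM scaling the SC5D difference was 0.12 (limma adjusted p = 0.999).

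Uptake genes gave 8 positive differences of 10 tested, with a median of 0.18 (0.092 with TMM scaling, and again 8 positive), where 73.4% of all genes were positive. Of the 10, 2 had an unadjusted p under 0.05, beside 7.68% of all genes. APOE, the lipoprotein ligand, averaged 40.2 ± 14.7 FPKM in high IMF and 23.7 ± 9.27 FPKM in low IMF (SD, n = 12 each), with a limma difference of 0.74 and an adjusted p of 0.233. LRP1, an endocytic receptor that binds APOE, had a difference of 0.40 (adjusted p = 0.642). Of the adipocyte markers 11 of 12 had a positive difference, 9 of 12 with an unadjusted p under 0.05 and 1, LEP, past the adjusted threshold, and their part in the APOE and LRP1 values was not tested.

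Regulators gave 8 positive differences of 9 tested (median 0.14), and 5 of 9 with TMM scaling. The liver X receptor gene NR1H2, a sterol-activated factor, was the only one with an unadjusted p under 0.05, at 0.25 (limma adjusted p = 0.626). SREBF2, which encodes SREBP-2 and was named for its role, had a difference of 0.18 (adjusted p = 0.742). The isoprenoid branch fed by FDPS had 9 positive differences of 9 (median 0.049), which were 4 of 9 with TMM scaling, and its smallest p were those of FNTA, a prenyltransferase subunit, at 0.19 (adjusted p = 0.665) and DHDDS, of dolichol synthesis, at 0.24 (adjusted p = 0.743). From the list of efflux and esterification only ABCA1, CYP27A1 and CH25H were tested. SOAT1, its gene of esterification, was not tested and ABCG1 was not listed, so esterification was not read here. Of the 3 tested genes 1 was positive (median -0.032), and 0 of 3 with TMM scaling (median -0.12). ABCA1, the cholesterol exporter, was at -0.10 and CYP27A1, a sterol hydroxylase, at -0.032. These medians stand beside the all-gene median of 0.077.

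Whether the 5 genes moved together from animal to animal was read from their 10 pairs. Of these, 5 of 10 correlations were positive, and their median r was -0.014, where over all pairs of tested genes the median was 0.117 and 66.7% were positive. The pairs with FDPS rest on the value shared with RUSC1. With FDPS summed over its locus, r went from -0.14 to 0.16 with HMGCS1 and from -0.28 to 0.34 with CYP51A1. It went from 0.25 to 0.37 with INSIG1 and from -0.045 to -0.30 with FDFT1. HMGCS1 and FDFT1, which open the pathway and commit it to sterols, had r = -0.062 (permutation adjusted p = 0.934). HMGCS1 and INSIG1 had r = 0.016 (permutation adjusted p = 0.934). The highest pair was CYP51A1 with INSIG1 at r = 0.38 (permutation p = 0.0660, adjusted p = 0.330; rho = 0.31, permutation adjusted p = 0.362), a value that 16.9% of all gene pairs reach.

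**Figure D5:**
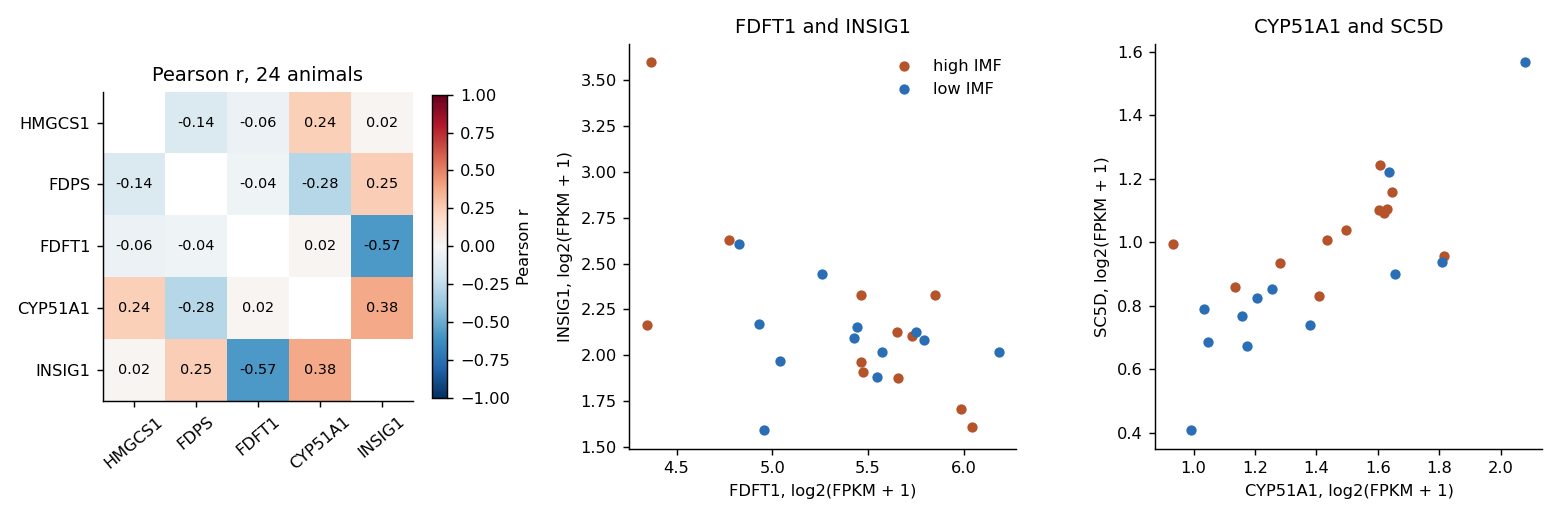
Left, Pearson r between the 5 genes over 24 animals on the log2(FPKM + 1) scale. Middle and right, log2(FPKM + 1) of INSIG1 against FDFT1 and of SC5D against CYP51A1, 1 point per animal coloured by IMF class, where high IMF animal 2 sits alone at the upper left of the middle panel and low IMF animal 4 at the upper right of the right panel.

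A single pair passed, and it was negative. INSIG1 was higher where FDFT1 was lower, with r = -0.57 (permutation p = 0.00295, adjusted p = 0.0295 over the 10 pairs) and rho = -0.49 (permutation p = 0.0155, adjusted p = 0.155). Among all pairs of tested genes 0.280% lay at or below that r. Without high IMF animals 2 and 6, the farthest in FDFT1, r was -0.44 (permutation adjusted p = 0.185), and without high IMF animal 2 alone it was -0.41 (permutation adjusted p = 0.270). The call was also lost without high IMF animals 1, 7 or 8 or low IMF animal 4, with r between -0.55 and -0.54. Within classes r was -0.72 in high IMF and -0.18 in low IMF, and within identifier sets -0.81 and -0.23. The size of r thus depended most on high IMF animal 2, and the call on each of the animals named.

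Among the low IMF animals alone INSIG1 was correlated with HMGCS1 and with CYP51A1. There r was 0.62 for HMGCS1 with CYP51A1, which did not pass (permutation adjusted p = 0.103), 0.74 for HMGCS1 with INSIG1 (permutation adjusted p = 0.0324) and 0.76 for CYP51A1 with INSIG1 (permutation adjusted p = 0.0250). Low IMF animal 4 was the highest low IMF animal in all 3 genes, and without it the values were 0.37, 0.58 and 0.60. In high IMF the same pairs had r = -0.094, -0.24 and 0.18. The difference between the classes was not tested.

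HMGCS1 with CYP51A1 shows how far single animals reach. Over all 24 animals r was 0.24, without high IMF animal 10, where HMGCS1 was lowest, it was 0.56 (permutation adjusted p = 0.0278), and without low IMF animal 4 it was 0.053. FDPS with CYP51A1 had r = -0.28, which was -0.69 without low IMF animals 3 and 10 (permutation adjusted p = 0.00330), and 0.34 when FDPS was taken as the sum over its locus. No direction is drawn from either pair.

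Against the 47 other pathway genes, 235 pairs in all, 1 pair passed. CYP51A1 ran with SC5D, which acts later in the same sterol trimming, with r = 0.75 (permutation p = 2e-05, adjusted p = 0.00470) and rho = 0.70 (permutation p = 0.00021, adjusted p = 0.0493). SC5D was the gene most correlated with CYP51A1 of all 11756 others. The levels of SC5D were low, from 0.777 through 1.03 to 1.37 FPKM in high IMF and from 0.327 through 0.7503 to 1.96 FPKM in low IMF. The value was 0.76 without the 2 animals farthest in CYP51A1, 0.50 in high IMF and 0.85 in low IMF, and 0.68 and 0.81 within the identifier sets. Its permutation adjusted p was 0.0705 with TMM scaling (r = 0.70), 0.0634 with upper-quartile scaling (r = 0.71) and 0.106 without low IMF animal 4 (r = 0.67), so the direction held there and the call did not. The next strongest pair did not pass and was negative, HMGCS1 with STARD3, a late endosomal sterol-binding protein, at r = -0.64 (permutation p = 0.00139, adjusted p = 0.163; rho = -0.41, permutation adjusted p = 0.3002), with r = -0.34 without the 2 farthest animals and -0.75 and -0.41 within the identifier sets. STARD3 was named after its value was seen.

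Identifier sets and cell markers were set beside the levels in turn. HMGCS1 averaged 2.17 ± 0.774 FPKM in the 12 animals of the first set and 3.19 ± 0.967 FPKM in the 12 of the second, a limma difference of 0.42 (SE 0.151, unadjusted p = 0.0106, adjusted p = 0.767). For the other 4 genes the unadjusted p was 0.133 or more. The IMF difference of HMGCS1 was negative in both sets, at -0.076 in the first and -0.22 in the second. The other 4 genes changed sign between sets: CYP51A1 was at 0.26 and -0.062, INSIG1 at 0.20 and -0.0044, FDFT1 at -0.093 and 0.11, and FDPS at -0.19 and 0.18. No interaction of IMF class with identifier set passed among the 5 genes (unadjusted limma p from 0.212 to 0.653, so 0 of 5 under 0.05, beside 3.29% of all genes). Of 45 relations between the 5 genes and 9 library or cell marker measures, 0 passed. The strongest was HMGCS1 with the fibroblast markers at r = 0.55 and rho = 0.55 (permutation adjusted p = 0.267 and 0.256), r = 0.45 without the 2 farthest, and r = 0.57 and 0.38 within sets. With the adipocyte markers r lay at 0.15 for HMGCS1, 0.029 for FDFT1, 0.27 for FDPS, 0.22 for CYP51A1 and 0.17 for INSIG1.

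The genes most like each member over the 24 animals were taken from 8007 candidates, which have a symbol and a mean of at least 1 FPKM. SC5D, with a mean of 1.04 FPKM in high IMF and 0.857 FPKM in low IMF, fell under that minimum, so its higher r with CYP51A1 is not among the values that follow. For FDFT1 they were FBXL4, a mitochondrial F-box protein, at r = 0.82 and HECA at 0.82. For HMGCS1 they were ACTR1B, a dynactin subunit, at 0.75 and LUM, the matrix proteoglycan lumican of the fibroblast marker list, at 0.74. FDPS was nearest to INTS5 (0.71) and PPIH (0.66), CYP51A1 among these candidates to MAT2B (0.73) and EZR (0.70), and INSIG1 to ASB2 (0.72) and UBN1 (0.68). For the mean z score of the 5 genes the 10 nearest were UBQLN2 at 0.81, PCYOX1L, SND1, VPS13D, LDOC1, NOS1, LAS1L, SPTAN1, HSPG2 and PEG3 at 0.74. These are the highest of many values over the same libraries and are given as a description.

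The reads behind these levels differed widely. At 150 bases a read, the median animal had about 3619 reads behind FDFT1, 521 behind HMGCS1, 350 behind INSIG1, 326 behind CYP51A1 and 295 behind FDPS. The fewest were 9.45 for FDPS in low IMF animal 3 and 87.7 for HMGCS1 in high IMF animal 10. For FDPS these are only the reads assigned to the 1 listed transcript. The sum over its locus was 2.63 FPKM in low IMF animal 3. How much of the low FDPS values comes from counting error and how much from the division of shared reads was not tested.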

How the data were processed

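Per the submitters' processing notes, HISAT2 2.0.5, StringTie 1.3.3 and build Sscrofa11.1 were used, with roles not stated there and the annotation release not given in the sources used here. Deposited rows number 22154 transcripts, each above 0 in at least 19 of 24 libraries. The authors' values were taken as FPKM from their sums and steps, since no header names the unit. The authors' ratio (fold, low over high IMF) and their p-value and q-value columns were copied only where named as theirs.

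Transcripts of a symbol on a chromosome were summed. The 11757 genes averaging 0.5 FPKM or more were tested on log2(FPKM + 1) with limma 3.58.1 (trend, robust; R 4.3.3), which was checked on simulated data, with Benjamini-Hochberg adjustment at 0.05. The fold scale understates changes of low genes. Correlations used 100000 two-sided permutations (numpy 2.4.6). Depth came from whole-read steps, with 73.3% to 90.0% of the low values whole within 0.05 base. Named pathway genes are those with an unadjusted p under 0.05 or the 2 of smallest p per list, and named likeness genes (mean of at least 1 FPKM, no member) the 2 of highest r per member and the 10 for the mean score. Members and lists were chosen with earlier results of these data known. Alternatives covered scaling, filter, pseudocount, moderation, weights, identifiers, transcripts and single animals. Gene positions of neighbours came from RefSeq on the same build. Most pathway genes were counted in their lists only, and some are not reported here.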

Additional observations from a re-analysis of the deposited data

How the results depend on the processing

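No paired analysis was run, because the classes are different animals and the labels pair none of them across classes. The labels carry no replicate numbers, and animals were numbered in accession order. In every alternative run, leaving out each animal included, 0 of the 5 genes were called in either direction (with a mean of at least 5 FPKM only FDFT1 was tested). Over these fits CYP51A1 and INSIG1 kept a positive difference wherever tested, except for INSIG1 at -0.029 without high IMF animal 2, but within the second identifier set alone they were at -0.062 and -0.0044. Differences near 0 changed sign, and the cause was not tested. FDFT1 went to -0.10 with TMM scaling, -0.11 with upper-quartile scaling, -0.039 with array weights and -0.063 without the 2 libraries whose top 10 genes took the smallest share. FDPS went to 0.25 with a pseudocount of 0.1 FPKM, 0.0053 with array weights, 0.045 with 1 animal per shared 9 identifier digits and 0.15 without those 2 libraries, and HMGCS1 to 0.00035 with reference transcripts alone.

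Leaving out 1 animal at a time gave -0.20 to -0.038 for HMGCS1, -0.10 to 0.10 for FDPS, -0.051 to 0.10 for FDFT1, 0.064 to 0.16 for CYP51A1, -0.029 to 0.15 for INSIG1 and -0.044 to 0.10 for their median. The lone-animal range of the median r over pairs was -0.056 to 0.062. For single pairs it was -0.19 to 0.045 (HMGCS1 and FDFT1), -0.31 to 0.020 (HMGCS1 and FDPS), 0.053 to 0.56 (HMGCS1 and CYP51A1), -0.095 to 0.30 (HMGCS1 and INSIG1), -0.16 to 0.032 (FDFT1 and FDPS), -0.079 to 0.16 (FDFT1 and CYP51A1), -0.67 to -0.41 (FDFT1 and INSIG1), -0.49 to -0.13 (FDPS and CYP51A1), 0.14 to 0.38 (FDPS and INSIG1), 0.31 to 0.45 (CYP51A1 and INSIG1) and 0.67 to 0.82 (CYP51A1 and SC5D).

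The median r over pairs moved to -0.15 (TMM), -0.13 (upper quartile), 0.023 (pseudocount of 0.1 FPKM), -0.045 (reference transcripts), -0.11 and 0.045 (high and low IMF alone), -0.23 and 0.081 (first and second identifier sets alone), 0.090 (FDPS summed over its locus) and 0.027 (without the 2 animals farthest from the median). FDPS and INSIG1 kept a positive r in each of these, but r was -0.21 in low IMF alone without low IMF animal 3.

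HMGCS1 and FDFT1 turned positive with the identifier term (0.11), reference transcripts (0.27), high IMF alone (0.11), the first set (0.24), 1 animal per 9 digits (0.0023) and without the 2 farthest (0.16). HMGCS1 and FDPS turned positive in the second set (0.086) and over the FDPS locus (0.16). HMGCS1 and CYP51A1 turned negative with reference transcripts (-0.14), in high IMF (-0.094) and in the first set (-0.19). HMGCS1 and INSIG1 turned negative with TMM (-0.00029), the identifier term (-0.030), reference transcripts (-0.18), high IMF (-0.24), the first set (-0.26) and without the 2 farthest (-0.13), and passed in low IMF (0.74). FDFT1 and FDPS turned positive with a pseudocount of 0.1 FPKM (0.049), in low IMF (0.28), in the second set (0.068), without the 2 low-share libraries (0.042) and without the 2 farthest (0.13). FDFT1 and CYP51A1 turned negative with TMM (-0.16), upper quartile (-0.13), low IMF (-0.078), the first set (-0.028), without the 2 low-share libraries (-0.016) and without the 2 farthest (-0.015). FDFT1 and INSIG1 missed the threshold in high IMF (-0.72), low IMF (-0.18), the second set (-0.23), with 1 animal per 9 digits (-0.56), without the 2 low-share libraries (-0.54) and without the 2 farthest (-0.44). FDPS and CYP51A1 passed in the first set (-0.75) and without the 2 farthest (-0.69), and turned positive in the second set (0.0057) and over the FDPS locus (0.34). CYP51A1 and INSIG1 passed in low IMF (0.76). CYP51A1 and SC5D missed it with TMM (0.70), upper quartile (0.71), in high IMF (0.50) and in either identifier set (0.68 and 0.81). These classes and sets hold 12 animals, fewer than the 24 of the main comparison.

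Reads behind a gene in an animal ran from 9.45 to 4993. By the median over animals, counting error is largest for FDPS (295 reads) and smallest for FDFT1 (3619 reads).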
